A study of Homo sapiens with 2 samples.

Results

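The genes described here make, break down and relay cyclic AMP (cAMP), and were read in a map of ATF1 binding in HCT116 cells, a human colon adenocarcinoma line. They were chosen by name, with earlier results of these data known. The names cover adenylyl cyclases (ADCY), cyclic nucleotide phosphodiesterases (PDE), and subunits (PRKA) and inhibitors (PKI) of protein kinase A (PKA). They also cover A-kinase anchoring proteins (AKAP), RAP guanine nucleotide exchange factors (RAPGEF), regulators of G protein signalling (RGS) and GNAS. Of 85 protein-coding genes with such names in RefSeq, 66 were in the deposited table of 15064 peaks, which assigns 1 peak to each gene name. How that peak was chosen where a gene had several is not stated, and every place, fold and tag value of a gene depends on it. The study had 2 samples, both from HCT116 cells grown with serum and no stated agent. In 1, chromatin from cells given ATF1 with a 3xFlag tag was precipitated with an antibody to the tag; the other was input DNA, which was not used here. How the tagged protein was expressed, and at what level beside the cells' own ATF1, is not stated in the labels. There was no replicate, so no test between conditions was possible and every value below describes 1 library.

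In textbook outline, a hormone receptor activates the stimulatory G protein, which switches on adenylyl cyclase, and the cAMP formed releases the catalytic subunits of PKA from its regulatory subunits. PKA phosphorylates CREB, CREM and ATF1, basic leucine zipper factors that bind the cAMP response element (CRE). Phosphodiesterases and PKA inhibitors damp the signal, and anchoring proteins hold PKA in place. RGS proteins act on G protein alpha subunits. Some genes of these groups are themselves known cAMP-responsive genes.

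Sequences around the starts of these genes are shown first, because ATF1 is known for binding the CRE. RefSeq promoters (GRCh38.p14, the assembly of hg38) run from 250 bases before a start to 50 after it, 300 bases in all, and 57 of the 66 genes had at least 1. ADCY8, ADCY9, AKAP8L, PDE3B, PDE7A, PDE9A, PKIA, PRKACG and RGS20 had none. The 6 shown were taken from genes whose summit, the highest point of the peak, lay within 1 kb of the start. PDE4A was the only such gene with the full CRE palindrome TGACGTCA, and the other 5 had the highest fold enrichment among those with its shorter core (TGACG, or CGTCA on the other strand). Each is written 5′ to 3′ on the strand of the gene, and capitals mark the palindrome and the cores, a palindrome being 2 overlapping cores.
PDE4A (chr19:10416523-10416822, plus strand): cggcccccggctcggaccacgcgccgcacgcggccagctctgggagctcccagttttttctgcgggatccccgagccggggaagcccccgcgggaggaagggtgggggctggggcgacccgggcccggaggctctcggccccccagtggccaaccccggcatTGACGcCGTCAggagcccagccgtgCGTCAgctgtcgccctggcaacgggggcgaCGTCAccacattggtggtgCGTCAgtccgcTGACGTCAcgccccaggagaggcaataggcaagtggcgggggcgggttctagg
RAPGEF6 (chr5:131635180-131635479, minus strand): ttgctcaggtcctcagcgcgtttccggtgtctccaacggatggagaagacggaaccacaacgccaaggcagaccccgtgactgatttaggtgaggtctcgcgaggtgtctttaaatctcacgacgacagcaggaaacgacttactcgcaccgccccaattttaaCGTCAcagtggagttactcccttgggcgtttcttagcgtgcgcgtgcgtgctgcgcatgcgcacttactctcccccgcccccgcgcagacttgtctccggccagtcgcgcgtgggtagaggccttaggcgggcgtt
RGS2 (chr1:192808789-192809088, plus strand): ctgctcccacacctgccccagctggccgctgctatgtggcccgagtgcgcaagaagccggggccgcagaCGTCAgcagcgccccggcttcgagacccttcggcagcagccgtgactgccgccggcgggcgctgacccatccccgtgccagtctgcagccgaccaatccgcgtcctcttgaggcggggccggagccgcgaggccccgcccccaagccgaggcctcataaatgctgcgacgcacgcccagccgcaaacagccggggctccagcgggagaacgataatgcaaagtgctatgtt
AKAP1 (chr17:57084996-57085295, plus strand): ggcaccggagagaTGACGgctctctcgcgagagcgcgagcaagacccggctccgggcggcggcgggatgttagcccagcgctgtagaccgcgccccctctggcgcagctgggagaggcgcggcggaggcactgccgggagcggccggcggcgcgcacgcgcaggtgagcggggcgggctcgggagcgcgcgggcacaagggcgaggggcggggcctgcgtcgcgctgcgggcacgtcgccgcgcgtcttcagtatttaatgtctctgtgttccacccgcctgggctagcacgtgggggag
AKAP9 (chr7:91940612-91940911, plus strand): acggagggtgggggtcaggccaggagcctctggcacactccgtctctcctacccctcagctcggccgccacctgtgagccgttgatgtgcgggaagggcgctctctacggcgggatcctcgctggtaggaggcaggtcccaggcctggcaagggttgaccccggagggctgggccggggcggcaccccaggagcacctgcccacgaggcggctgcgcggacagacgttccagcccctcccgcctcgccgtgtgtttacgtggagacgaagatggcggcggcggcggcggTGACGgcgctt
PRKACB (chr1:84077829-84078128, plus strand): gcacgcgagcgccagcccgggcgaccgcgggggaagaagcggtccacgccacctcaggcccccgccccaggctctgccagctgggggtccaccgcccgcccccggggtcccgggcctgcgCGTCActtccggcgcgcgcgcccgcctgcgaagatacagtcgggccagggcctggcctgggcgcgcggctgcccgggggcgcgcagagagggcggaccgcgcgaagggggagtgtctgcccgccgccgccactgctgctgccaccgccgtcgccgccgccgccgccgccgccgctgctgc

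The PDE4A promoter held 1 palindrome, which began 3 bp before the start of the gene, and 5 further cores outside it. The ATF1 summit lay 11 bp from the centre of that palindrome. In the other 5 promoters there was 1 core each. It lay 18 bp from the summit at PRKACB, 31 bp at RGS2 and 39 bp at AKAP9, where it is downstream of the start. At RAPGEF6 and AKAP1 it was farther away, at 148 and 159 bp.

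PRKAR1A is shown as well, chosen after its values were seen, because its promoter holds a palindrome far from the peak listed for it. PRKAR1A encodes the type I alpha regulatory subunit, which keeps PKA inactive without cAMP. RefSeq gives it 5 starts with promoters, and 2 of these windows overlap and contain the same palindrome.
PRKAR1A (chr17:68512180-68512479, plus strand): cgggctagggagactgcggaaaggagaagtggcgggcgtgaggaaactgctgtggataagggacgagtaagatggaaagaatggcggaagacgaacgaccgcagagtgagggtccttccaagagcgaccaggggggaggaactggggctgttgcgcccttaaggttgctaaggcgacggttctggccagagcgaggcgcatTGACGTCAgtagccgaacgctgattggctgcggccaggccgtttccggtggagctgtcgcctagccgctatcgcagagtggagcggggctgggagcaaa
The summit of the listed PRKAR1A peak lay 54634 bp from the start of transcription in this window.

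Peaks were listed for 77.6% of the 85 family genes (exact 95% binomial interval 67.3 to 86.0%), beside 60.8% of all 19970 protein-coding genes. These are long genes, with a median of 120241 bp for the 66, beside 33324 bp for all listed protein-coding genes. Among genes of up to 10000 bp, 5 of 8 family genes were listed (62.5%), beside 40.0% of all. Among those of 30000 to 100000 bp, 16 of 19 were listed (84.2%), beside 70.8%. Among genes over 100000 bp, 40 of 47 family genes were listed (85.1%), beside 76.0% of all. Among those of 10000 to 30000 bp, 5 of 11 were listed (45.5%), beside 63.0%. All 7 PKA subunit genes, all 3 PKA inhibitor genes and GNAS had a peak, as did 9 of 10 adenylyl cyclases and 19 of 22 phosphodiesterases. The shares were lower for anchoring proteins (10 of 15), exchange factors (4 of 6) and RGS genes (13 of 21). Exact 95% intervals were wide, at 55.5 to 99.7% for cyclases, 65.1 to 97.1% for phosphodiesterases and 38.4 to 81.9% for RGS genes. No difference between roles was tested. The 19 unlisted genes were ADCY6, PDE1A, PDE1B, PDE6A, AKAP3, AKAP4, AKAP6, AKAP14, AKAP19, RAPGEF4, RAPGEF5, RGS1, RGS4, RGS5, RGS11, RGS13, RGS18, RGS21 and RGS22.

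Fold enrichment, the authors' ratio of each peak to a background that is not specified, was of middle size. Its median over the 66 genes was 6.91, with a range of 3.20 to 20.15, and 49.2% of all peaks were lower than this median. The median of all peaks was 6.97. Few of the genes were among the strongest by fold: 9 of 66 (13.6%, interval 6.43 to 24.3%) reached the upper quartile of the table, 9.76-fold, beside 26.3% of listed protein-coding genes. These 9 were PRKAR1A, PDE7A, RAPGEF6, RGS2, RGS20, AKAP1, AKAP9, AKAP13 and PRKACB. They belong to 5 roles, and neither GNAS nor any cyclase or PKA inhibitor was among them.

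**Figure D1:**
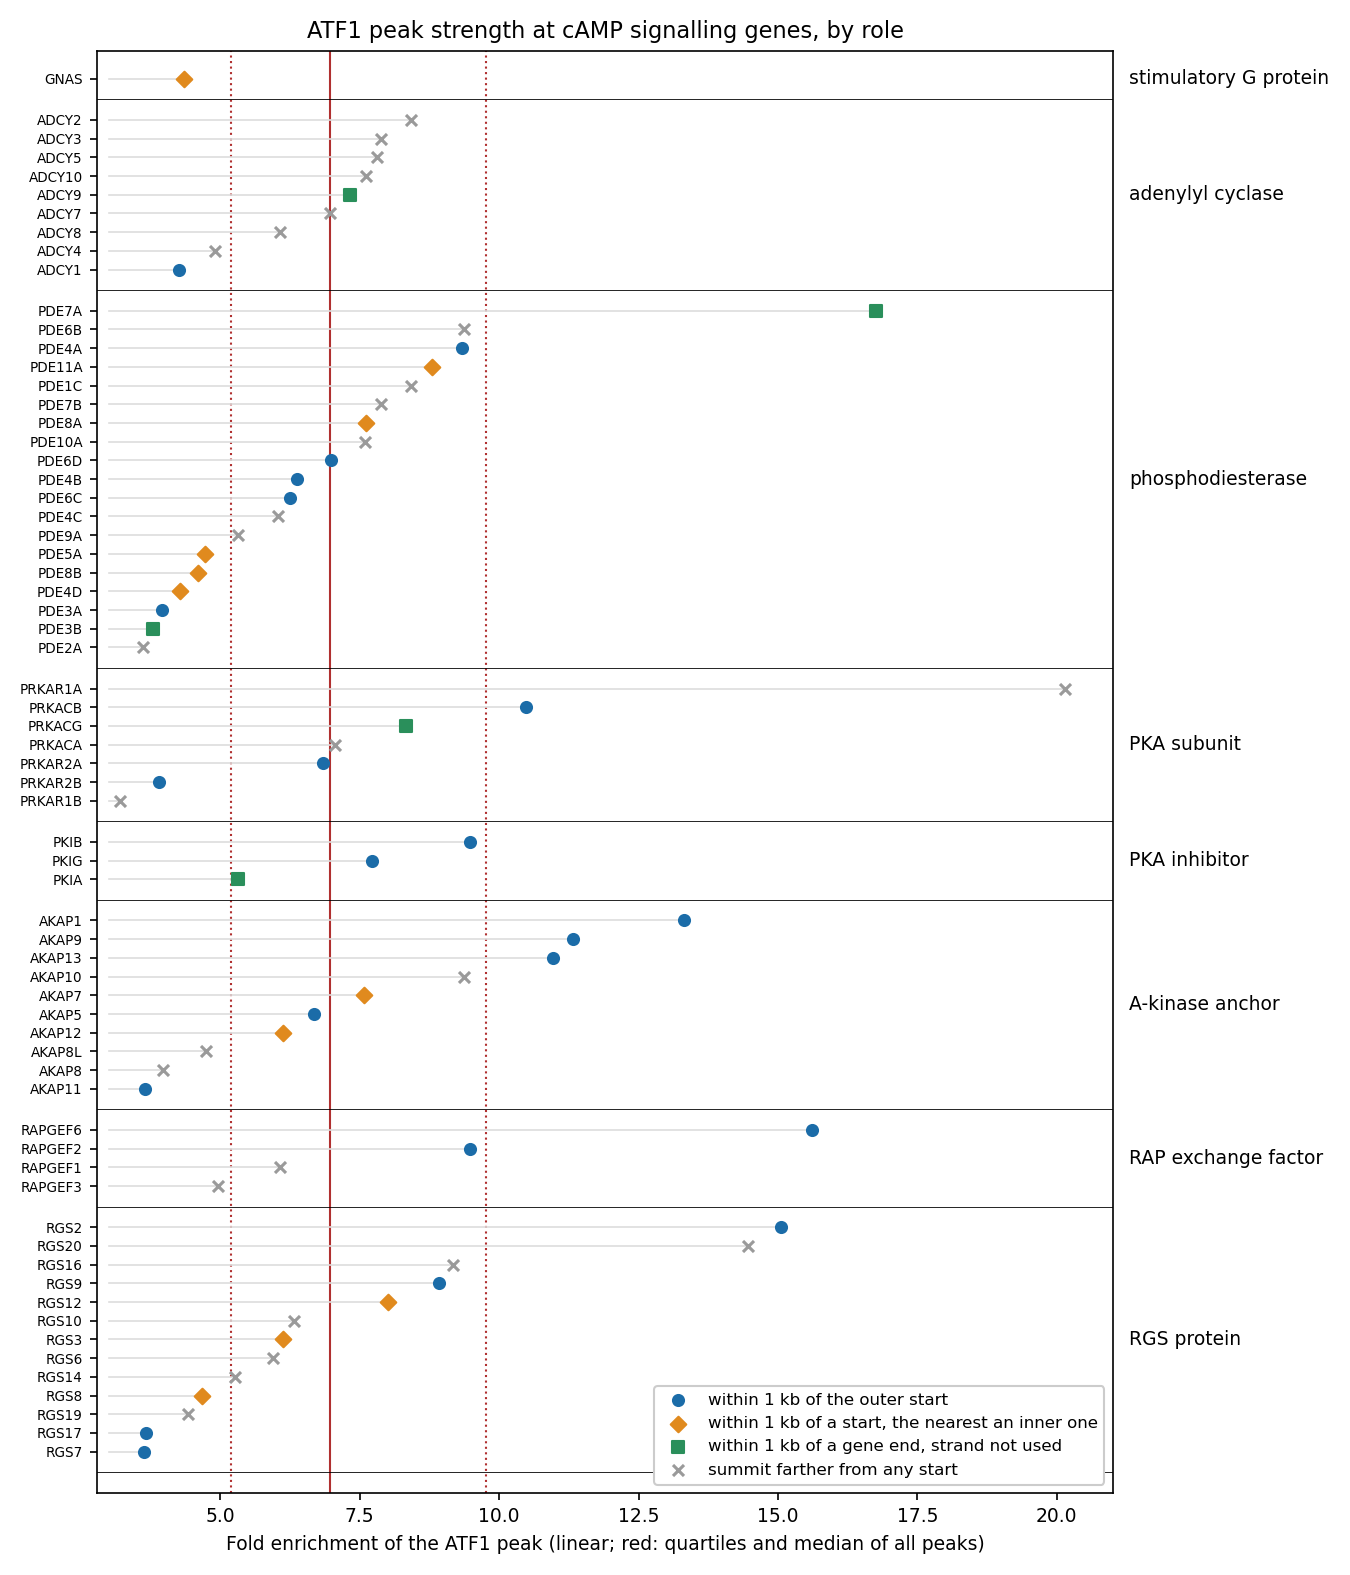
Fold enrichment of the ATF1 peak of each of the 66 genes (horizontal axis, linear, drawn from 3), grouped by role; 1 point is 1 peak of the single library, and red lines mark the quartiles and the median (6.97) of all peaks. PRKAR1A stands highest at 20.15, and all 9 cyclases lie below the upper quartile of 9.76. Diamonds mark peaks within 1 kb of a start, the nearest an inner one, and crosses mark peaks farther from any start.

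At 38 of the 66 genes (57.6%, interval 44.8 to 69.7%) the summit was counted as at a start, beside 65.7% of listed protein-coding genes. This means within 1 kb of a RefSeq start, or of either gene end where no promoter entry gave the strand. Either end was counted for 5 of the 38: PDE7A, PDE3B, PRKACG, PKIA and ADCY9. A summit there may lie at the far end of the gene rather than at its start. Of all 66 summits, 25 lay within 200 bp of a start so counted. Another 7 were between 1 and 10 kb away and 21 farther than 10 kb. No such distance counts were made over all listed genes, so they cannot be read as unusual. How far the length of the family genes bears on them was not tested. Peaks at a start held more tags (sequenced fragments counted in the peak), with a median of 227.5 beside 51 for the 28 peaks elsewhere. Across listed protein-coding genes the medians were 243 and 62. The medians of fold enrichment at and away from starts, 6.91 and 6.65, were closer to each other than the 7.60 and 6.29 of all listed protein-coding genes. At starts, 7 of 38 of the genes (18.4%) were in the upper quartile, beside 34.4%. By the authors' classes, 26 peaks were exonic (39.4%, beside 43.5% of all peaks), 23 intronic (34.8%, beside 33.9%), 15 within 2 kb upstream (22.7%, beside 19.9%) and 2, at RAPGEF1 and RGS10, downstream. At 7 of the 38 genes with a peak at their start, a start of another gene was also within 1 kb of the summit. The same count was not made for all listed genes, so it cannot be read as a trait of this family.

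**Figure D2:**
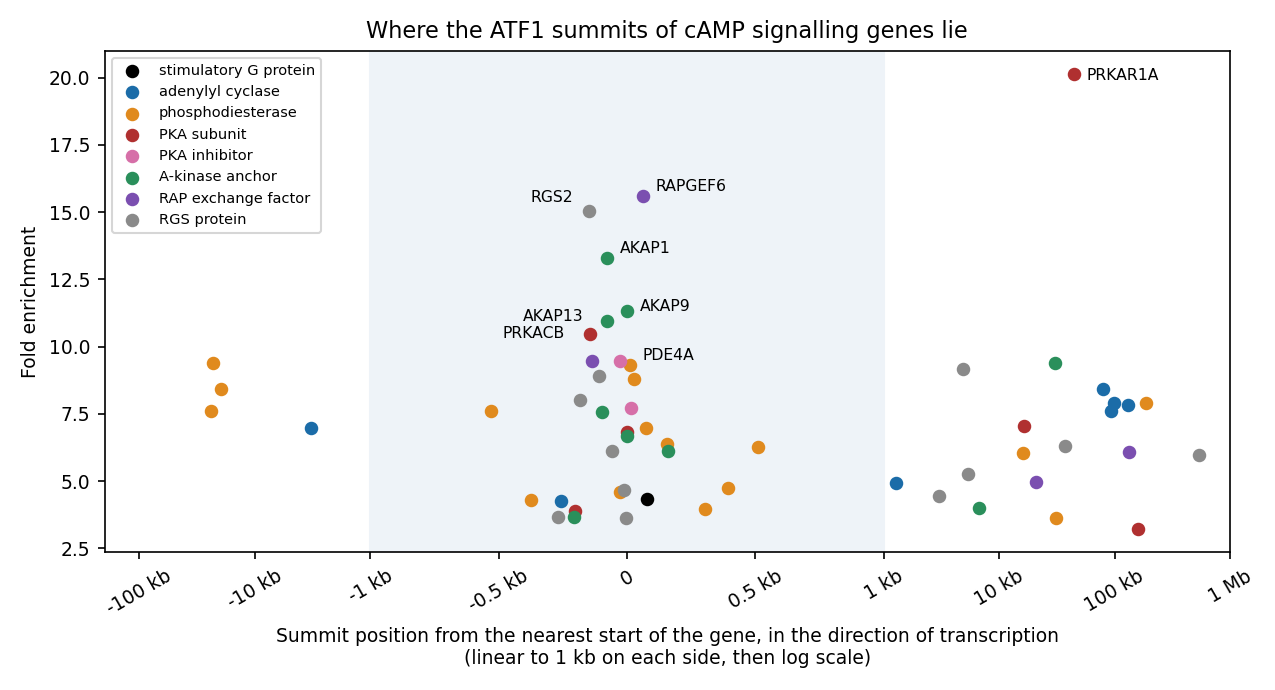
Fold enrichment (vertical axis) against the position of the summit from the nearest start of its gene in the direction of transcription (horizontal axis, linear to 1 kb on each side and log beyond), for the 57 genes with a known strand; 1 point is 1 peak, coloured by role. Most of the tallest points, among them RAPGEF6, RGS2 and AKAP1, sit inside the shaded 1 kb window. PRKAR1A, the tallest, lies 44173 bp inside its gene and 300 bp from the start of another gene, WIPI1.

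Some of the summits lay at inner starts. For 11 of the 66 (16.7%) the nearest start was an inner one, more than 1 kb from the outer start and within 1 kb of the summit, beside 6.97% of listed protein-coding genes. The genes also have more starts on record, with a median of 2 RefSeq promoters per gene beside 1, and how far this sets the share was not tested. The 11 were GNAS, PDE4D, PDE5A, PDE8A, PDE8B, PDE11A, AKAP7, AKAP12, RGS3, RGS8 and RGS12. Of these only PDE8A also had its outer start within 1 kb of the summit, at 859 bp. Measured to the gene ends of the deposited table, the summits of PDE8A, PDE8B and RGS12 lay 813, 23 and 139 bp from an end. The other summits of the 11 lay more than 1 kb from both of those ends. Because a gene has a single entry, the table does not show whether its other starts were bound.

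GNAS encodes the alpha subunit of the stimulatory G protein and, from further promoters of a complex imprinted locus, other products. Its peak (chromosome 20, 58850332 to 58856485) was the longest of the 66, at 6154 bp, with 452 tags (exact 95% Poisson interval 411 to 496) but 4.35-fold enrichment, above 13.7% of peaks. The summit lay 80 bp from an inner start. RefSeq starts farther downstream were 35617 and 36384 bp away, and the outer start was 13048 bp away. The start nearest the summit had 1 core in its promoter, 136 bp from the summit.

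Adenylyl cyclases, which make cAMP from ATP, had peaks with few tags, mostly far from starts. In fold enrichment 6 of the 9 were at or above the median of all peaks. They ranged from 4.27- to 8.42-fold, with a median of 7.32-fold and 35 tags. Of the 9, 7 were counted as away from a start, whereas 65.7% of listed protein-coding genes had the summit at one. Peaks away from starts also had few tags among listed protein-coding genes, with a median of 62. ADCY2, a membrane cyclase, had the highest fold, 8.42, on 26 tags (interval 17.0 to 38.1), 78883 bp inside its gene. ADCY3 (7.89-fold, 25 tags) and ADCY5 (7.81-fold, 53 tags) followed, 98046 and 131901 bp from the nearest start. Both lay closer to the far end of the gene as the table gives it, at 2370 and 2145 bp. ADCY10, the soluble cyclase, had 7.62-fold and 78 tags, 93837 bp from its start, and ADCY7 6.97-fold and 34 tags, 3270 bp upstream of the start in its RefSeq promoter entry. ADCY8 had 6.08-fold and 35 tags.

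Only ADCY1 among the cyclases had its summit at a known start, 256 bp upstream, and this peak was the lowest of the 9 at 4.27-fold with 52 tags. ADCY9 (7.32-fold, 35 tags) lay 913 bp from an end of the gene. ADCY4 had by far the most tags of the 9, 366, over 4277 bp, at 4.91-fold and 1276 bp inside the gene. The cyclase peak with most tags was not the one of highest fold.

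Phosphodiesterases, which hydrolyse cyclic nucleotides, covered the widest range of tags, from 21 to 1140. Their median fold was 6.37, and 12 of 19 were at a start or end. By substrate class, the cAMP-specific PDE4, PDE7 and PDE8 genes were all listed, 8 of 8, and 6 of these had the peak at a start or end, with a median of 6.995-fold. The cGMP-specific group (PDE5, PDE6 and PDE9 genes) had 5 of 6 listed, 3 at a start and a median of 6.26. The genes whose enzymes take both nucleotides had 6 of 8 listed, 3 at a start or end and a median of 5.78. Over all protein-coding genes 60.8% were listed, and 65.7% of those had the summit at a start. PDE6D, counted by its name, encodes a prenyl-binding partner of PDE6 and not an enzyme.

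PDE7A had the strongest phosphodiesterase peak by fold and by tags, 16.75-fold with 1140 tags (interval 1070 to 1210), above 92.4% of peaks by fold and 99.6% by tags. It was classed as upstream, and its summit lay 528 bp outside an end of the gene on chromosome 8. Its relative PDE7B had 21 tags (interval 13.0 to 32.1) at 7.89-fold, 186751 bp inside the gene. The RefSeq start of PDE7B holds a CRE palindrome, and no listed peak of the gene was near it. PDE8A had 763 tags at 7.62-fold, 530 bp upstream of an inner start, while PDE8B had 191 tags at 4.6-fold, 29 bp upstream of an inner start and 93560 bp from the outer one.

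The PDE4 genes encode the main cAMP-specific enzymes and make long and short forms from separate promoters. PDE4A had 9.33-fold enrichment and 392 tags (interval 354 to 433; chromosome 19, 10415970 to 10418344), with its summit 12 bp inside the first of its 5 RefSeq starts, at the palindrome shown above. PDE4B had 6.37-fold and 100 tags, 156 bp downstream of one of its 6 starts. PDE4C had 6.03-fold and 62 tags, 16008 bp from the nearest start and 524 bp from the far end of the gene. PDE4D had 4.28-fold and 232 tags (chromosome 5, 59038596 to 59040285). Its summit lay 373 bp upstream of an inner start, 1482279 bp from the outer start of this long gene, and 83 bp from the start of the antisense RNA PDE4D-AS1. Fold enrichment thus fell in the order PDE4A, PDE4B, PDE4C and PDE4D, and tags in the order PDE4A, PDE4D, PDE4B and PDE4C.

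Among the remaining phosphodiesterases, PDE6B had 9.37-fold on 44 tags, 23183 bp upstream of the RefSeq gene and inside the longer gene of the deposited table. PDE11A had 8.79-fold and 147 tags, 28 bp from an inner start, and PDE5A 4.73-fold and 333 tags, 394 bp from one. PDE10A, known for its high level in the striatum, had 7.60-fold and 37 tags, 23913 bp from the nearest start. PDE3A (3.96-fold, 395 tags) and PDE3B (3.79-fold, 299 tags), which encode cGMP-inhibited enzymes, had many tags and low fold, at 303 and 818 bp from a start or end. PDE2A was lowest at 3.62-fold with 258 tags, 31194 bp inside the gene. PDE6D had 6.98-fold and 232 tags, and its summit also lay 525 bp from the start of COPS7B, which has a peak of its own in the table. PDE1C, PDE6C and PDE9A had 41 tags or fewer, at 8.42-, 6.26- and 5.32-fold.

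By fold enrichment, the PKA subunits held both the highest and the lowest peak of the 66 genes; by tags these were PDE7A and RGS10. The PRKAR1A peak (chromosome 17, 68456316 to 68458562) had 20.15-fold enrichment and 494 tags (interval 451 to 540), above 95% of peaks by fold and 91.2% by tags. Its intronic summit was 44173 bp from the outer start of PRKAR1A and 54204 bp from the nearest start with a RefSeq promoter. It lay 300 bp from the start of WIPI1, an autophagy gene that is not in the table under its own name. Among the 28 genes whose summit was away from their own start, this was the only one within 1 kb of another gene's start in the RefSeq promoter set. No such count was made over all listed genes. The WIPI1 promoter, which ends 50 bp short of the summit, had no core. PRKAR1B, the neuronal type I subunit, was lowest by fold at 3.20-fold, with 170 tags (above 51.4% of peaks). The PRKAR1B summit lay 158578 bp from a start and 4741 bp from the far end of the gene.

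The type II regulatory subunits both had peaks at the start. PRKAR2A had 6.84-fold and 255 tags, 2 bp from the start and 4 bp from a core, in a peak 65 bp from the start of PRKAR2A-AS1. PRKAR2B had 3.90-fold and 341 tags, 201 bp upstream. Of the catalytic subunits, PRKACB had 10.48-fold and 326 tags (interval 292 to 363; chromosome 1, 84077157 to 84078844), 146 bp upstream of its outer start. PRKACA had 34 tags (interval 23.5 to 47.5) at 7.06-fold, in an exon 16543 bp from the nearest start and 5960 bp from the far end. The counting intervals of the PRKACB and PRKACA peaks did not overlap. They cover neither the unlike peak lengths, 1688 and 972 bp, nor how each gene's peak was chosen, and no difference was tested. PRKACG, an intronless retrogene copy, had 8.34-fold and 96 tags. Nothing in the labels says how reads matching more than 1 copy were handled, so the PRKACG value is uncertain.

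The PKA inhibitors, small proteins that block the catalytic subunit, all had peaks within 29 bp of a start or end. PKIB had 9.47-fold but only 39 tags (interval 27.7 to 53.3), 29 bp upstream, with 3 cores in the promoter, the closest 26 bp from the summit. The same summit lay 85 bp from the start of SERINC1, so the peak cannot be assigned to 1 of the pair. PKIG had 7.72-fold and 177 tags, 14 bp from its start. PKIA had 5.32-fold and 123 tags, 14 bp from an end of the gene.

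Anchoring proteins tether PKA to organelles and receptors. AKAP1, which binds mitochondria, had 13.31-fold enrichment and 686 tags (interval 636 to 739; chromosome 17, 57083732 to 57086885), 76 bp upstream of the start. The divergent transcript AKAP1-DT starts 132 bp from the same summit. AKAP9, a large centrosomal and Golgi scaffold, had 11.33-fold and 235 tags, 2 bp from the start, and AKAP13 10.96-fold and 250 tags, 79 bp upstream and without a core in the promoter. AKAP10 had 9.37-fold on 60 tags, 30691 bp inside the gene. AKAP7 (7.58-fold, 223 tags) had its summit 98 bp upstream of an inner start, 1 bp from a core. AKAP5, the postsynaptic AKAP79, had 6.69-fold and 164 tags, 1 bp from the start. AKAP12 had 6.13-fold and 64 tags, 160 bp from an inner start and 85724 bp from the outer one. The lowest were AKAP8L (4.74-fold, 73 tags), AKAP8 (3.98-fold, 189 tags) and AKAP11 (3.65-fold, 169 tags), and of these only AKAP11 had its summit at a start.

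The exchange factors activate RAP GTPases, and RAPGEF3 and RAPGEF4, known as EPAC1 and EPAC2, do so on binding cAMP. RAPGEF3 had 4.97-fold and 109 tags, 20870 bp from the nearest start and 2858 bp from the far end of the gene. RAPGEF4 was not listed. Both peaks at a start belonged to the other members. RAPGEF6 had 15.61-fold and 122 tags (interval 101 to 146; chromosome 5, 131634654 to 131635809), 64 bp inside the gene, and RAPGEF2 9.47-fold and 558 tags, 136 bp upstream. RAPGEF1 had 6.08-fold and 36 tags, beyond the end of the gene.

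RGS proteins speed GTP hydrolysis by G protein alpha subunits. RGS2, known as a cAMP-induced gene, had 15.05-fold and 407 tags (interval 368 to 449; chromosome 1, 192808101 to 192809568), 148 bp upstream of the start. RGS20 had 14.47-fold on 54 tags (interval 40.6 to 70.5), 19640 bp from the nearer end of the gene. RGS16 had 9.18-fold on 49 tags in an exon, 4861 bp from the start and 905 bp from the far end of the gene. RGS9, of the visual and striatal systems, had 8.92-fold and 97 tags, 109 bp upstream. RGS12 (8.0-fold, 482 tags), RGS3 (6.13-fold, 180 tags) and RGS8 (4.68-fold, 54 tags) were at inner starts, 182, 58 and 11 bp away. RGS17 (3.67-fold, 315 tags) and RGS7 (3.63-fold, 195 tags) were at the start but lowest. RGS6, RGS10, RGS14 and RGS19 were away from starts, with between 20 and 133 tags and 4.43- to 6.32-fold enrichment.

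**Figure D3:**
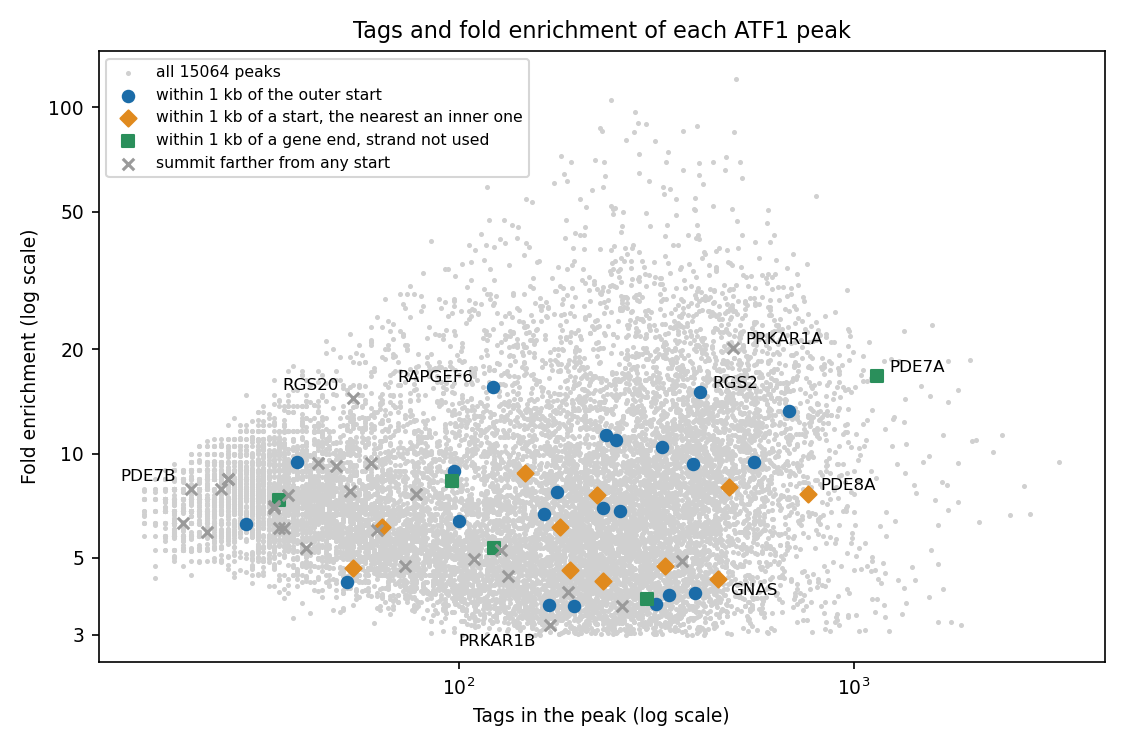
Fold enrichment (vertical axis, log) against tags in the peak (horizontal axis, log) for the 66 genes over all 15064 peaks in grey; 1 point is 1 peak. Peaks away from starts (crosses) gather at low tag counts, with a median of 51, while the PDE7A peak holds 1140 tags and the PRKAR1A peak 494.

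The share of bound starts with a CRE core was close to that of all listed genes. Over the 32 genes whose summit was within 1 kb of a start with a RefSeq promoter, 12 promoters held a core (37.5%, interval 21.1 to 56.3%), beside 38.3% of 6496 listed protein-coding genes placed in the same way and 24.6% of all 35116 RefSeq promoters. The palindrome was in 1 of 32 (3.12%, interval 0.0791 to 16.2%), beside 3.85% and 1.85%. A palindrome with at most 1 mismatch outside its central CG, exact ones included, was in 5 of 32 (15.6%), beside 11% and 6.16%. The 12 with a core had a median of 9.40-fold and the 20 without 6.20-fold. Over the listed protein-coding genes these medians were 10.28 and 6.78. Of the 12, 7 had a core within 50 bp of the summit (58.3%, interval 27.7 to 84.8%), beside 48.5% of the listed genes with one. In the upper quartile of fold, 5 of 6 promoters held a core (83.3%, interval 35.9 to 99.6%), beside 57.5% of listed genes. The 7 near the summit were AKAP7, PRKAR2A, PDE4A, PRKACB, PKIB, RGS2 and AKAP9. The ranges of fold enrichment overlapped, from 4.27- to 15.61-fold with a core and 3.63- to 10.96-fold without.

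The other motifs searched, both on either strand, were also near the background of bound starts. The CCAAT box (CCAAT or ATTGG) was in 12 of 32 promoters (37.5%), beside 37.0% of the listed genes and 34.6% of all promoters. The GC box (GGGCGG or CCGCCC) was in 23 of 32 (71.9%), beside 76.0% and 45%. Counting every RefSeq start of the family, bound or not, 4 of 181 windows (2.21%) held the palindrome, at PDE4A, PDE7B and PRKAR1A. A match says only that the letters are in the window, and a window without one can still have a site outside it.

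**Figure D4:**
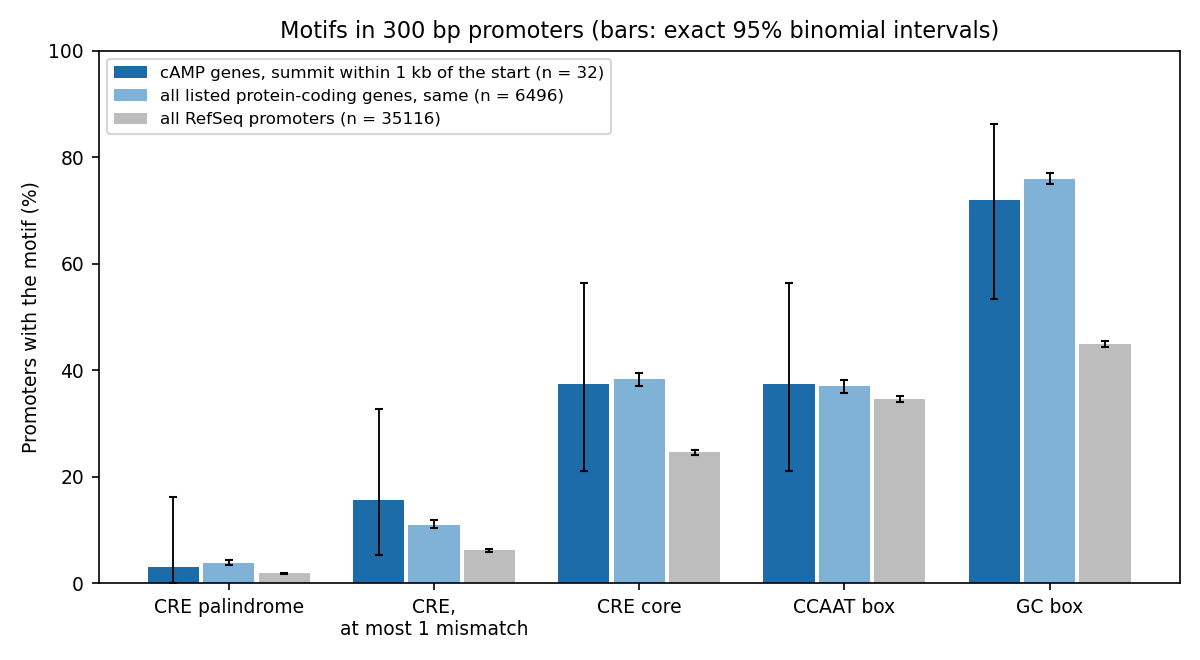
Share of 300 bp promoters that hold each motif (vertical axis, percent), for the 32 cAMP signalling genes with the summit within 1 kb of the start, all 6496 listed protein-coding genes placed alike and all 35116 RefSeq promoters; error bars are exact 95% binomial intervals. The first 2 bars of each motif overlap within their intervals, and the core stands at 37.5% and 38.3%, while the 24.6% of all promoters lies inside the interval of the first bar (21.1 to 56.3%).

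Further genes of the pathway were read in the same way, as chosen lists that do not cover the whole of it. Of 51 genes in 4 further lists, 36 were in the table (70.6%, beside 60.8% of protein-coding genes), with a median of 6.30-fold. The summit was at a start in 25 of the 36 (69.4%, beside 65.7%), and 9 were in the upper quartile (25%, beside 26.3%). Of G protein subunits, 9 of 10 were listed, and GNAI3 (13.94-fold, 131 tags), GNB2 (12.75-fold, 1261 tags), GNAL (12.11-fold, 33 tags) and GNG2 (10.83-fold, 54 tags) were in the upper quartile. Of receptors that signal through cAMP, 9 of 15 were listed, and only GPR3, a receptor with constitutive activity, was in the upper quartile (19.33-fold, 623 tags). Effectors had 11 of 15 listed, with the small GTPases RAP2A (23.95-fold, 558 tags, 1159 bp from its start) and RAP1B (13.67-fold, 322 tags) highest by fold. Of the phosphatases and PKA substrates 7 of 11 were listed (63.6%), all at starts, with PPP2CA (17.33-fold, 721 tags) and PPP1CC (10.80-fold, 307 tags) in the upper quartile.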

How the data were processed

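The deposited peak table of the 3xFlag-ATF1 library was used; the input sample entered no calculation. The submitters' processing notes name CASAVA, Bowtie2, bedtools and the hg38 build. Neither peak caller, control nor gene annotation is given in the sources. Per the file headers, the deposited tags are whole-number counts per peak, the fold enrichment is a ratio (lowest 3), the score (lowest 50) is the authors' and gene ends and summits are positions in bp. The table holds 15064 peaks; 1 line without a position was left out. The library's depth is unknown, so an unlisted gene may still be bound, and intervals cover counting error only.

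Gene names were matched to RefSeq GRCh38.p14 by current symbol (13438) or by a synonym of a single gene (700); 926 were unmatched or on another chromosome, and all 66 genes described matched by symbol. Starts were the RefSeq promoter entries plus the outer 5′ end of the gene, or both ends where no entry gave the strand. A summit within 1 kb was at a start; with motifs, only promoter entries within 1 kb of the summit counted. Motifs were exact matches on both strands. No test was run on 1 library: shares are set beside those of all listed protein-coding genes. Given in full were GNAS, PKA subunits and inhibitors, and the highest and lowest members of each role. The genes, lists and measures were chosen with earlier results of these data known. The placement and motif steps were checked on constructed genes with known answers. Alternatives changed the fold threshold, the window, the starts counted, the measure of strength and the motif. Python 3.11.15, numpy 2.4.6, pandas 2.3.3, scipy 1.17.1 and matplotlib 3.10.9 were used.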

Additional observations from a re-analysis of the deposited data

How the results depend on the processing

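Counts moved with the fold threshold and, by a larger factor, with the motif. With only peaks at or above the median fold enrichment, 33 family genes remained listed and 19 of these had the summit at a start. At or above the upper quartile there were 9 and 7, beside 3189 and 2746 listed protein-coding genes. Any set of peaks loses members under such thresholds. Matching by current symbols alone left the 66. The count of 38 at a start stayed within 1.5 times under a 500 bp window (32), a 5 kb window (42), outer gene ends on either side (31) and any overlap of the peak with the window (40). The table's own gene ends, a setting added after the data were seen, placed 54 genes alike and 12 otherwise. The percentage of all peaks below the genes' median was 49.2 by fold, 43.3 by tags, 45.5 by score and 50.1 by fold without RGS genes. For the 38 genes with a peak at a start it was 49.2 by fold, still ranked among all peaks. Set beside start peaks of listed protein-coding genes, the median of these 38 was lower, 6.91 beside 7.60. At the promoter nearest the summit, the palindrome was in 2 of 57 genes (1 of the 32 with the start within 1 kb), one with at most 1 mismatch outside its central CG, exact ones included, in 6 and the core TGACG or CGTCA in 19. The depth of the library is unknown and limits every statement on genes without a peak.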
